A study of Mus musculus with 16 samples.

Results

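The replication-cluster histone genes of the mouse are the genes whose names begin with Hist1h, Hist2h, Hist3h or Hist4h. All rows of the deposited count table with such a name were taken, which gave 68 of 37255 gene intervals. They comprised 6 genes for the linker histone H1, 19 for H2A, 18 for H2B, 12 for H3 and 13 for H4. By cluster, 55 lay in Hist1 on chromosome 13, 10 in Hist2 on chromosome 3, 2 in Hist3 on chromosome 11 and 1, Hist4h4, on chromosome 6.

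Replication-dependent histone genes are short and mostly without introns, and most of their messages end in a stem-loop in place of a poly(A) tail. Their transcription rises in S phase, when new DNA is packed into nucleosomes, and is organised in histone locus bodies around the coactivator NPAT. H2A and H2B genes often stand head to head and share 1 promoter region, and some members, such as Hist1h1t, Hist1h2aa and Hist1h2ba, are known as testis histones of the male germ line. Retinal ganglion cells, whose axons form the optic nerve, have left the cell cycle, so the accessibility of these genes is read here in cells that do not replicate their DNA.

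Open chromatin was profiled by ATAC-seq, in which a transposase cuts accessible DNA and inserts adapters, in retinal ganglion cells isolated by FACS from the eyes of female mice. Experimental autoimmune encephalomyelitis (EAE), an autoimmune disease of myelin that can involve the optic nerve, had been induced in mice aged 7 to 8 weeks. The control group, here called naive, had 5 libraries, and the EAE groups had 4 libraries at the presymptomatic stage, 3 at onset and 4 at peak. Strain, immunising antigen, clinical scores, ages at collection and any pooling of animals are not stated in the sources used here.

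Libraries held 7.42 to 65.2 M reads (megareads) in all and 1.58 to 15.1 M reads in nuclear gene intervals, and mitochondrial intervals took 8.36 to 64.7% of interval reads. Peak libraries were the shallowest as a group, with a mean of 3.03 M nuclear interval reads against 7.92 M in naive. Gene bodies of the listed ganglion cell markers had a median level of 1.15 reads per kb of window and M of nuclear interval reads, those of rods 1.77, of Müller glia 0.968, of microglia 0.466, of lymphocytes 0.469 and of cycling cells 0.334, and no listed marker was at 0 reads. The summed rod markers were at 163 to 364 TMM-scaled CPM, which sets counts to a common library size, at onset against 80.2 to 166 in naive, while the cycling-cell markers were at 18.9 to 32.0 and 22.2 to 32.9. Olfactory and vomeronasal receptor genes, known from sensory neurons of the nose, held 0.192 to 0.562% of nuclear reads. This receptor share serves below as a measure of background and was highest in naive replicates 3 and 4 and peak replicate 3.

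The interval in which reads were counted decides what a histone value means. The deposited lengths were the absolute difference between a gene's span and 2000 bp. For a gene under 1000 bp, as 61 of the 68 members were, this was read as a window over the gene, its start and flanking DNA on both sides. The position of the window is inferred from these lengths and is not stated in the sources used here. The other 7 members (Hist1h2bp, Hist1h2bq, Hist1h2br, Hist1h2be, Hist1h2bc, Hist1h2al and Hist2h2be) were annotated with longer spans, and on this reading their starts fell outside the counted interval. Under the inferred window, most histone genes, like other short genes of the table, were measured together with their promoters. Values are given below as a level, the reads per kb of window and M of nuclear interval reads.

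RefSeq promoters, 250 bases before to 50 after the start on GRCm38.p6, were found for 62 of the 68 members. The 4 sequence elements searched are known from histone promoters, and both strands were read: the octamer ATTTGCAT, which binds POU factors and is known from H2B promoters, the CCAAT box (CCAAT), which binds NF-Y, the TATA box (TATAAA) and AAACACA, the H1 box of linker histone promoters. Capitals mark these matches, and no match of 1 element overlapped a match of another. The linker histone Hist1h1e is shown for the smallest p of all members at peak and Hist1h2bk for the class of highest median level. Hist1h4h stands for the steepest relation to background and Hist1h3h for the lowest fold change at peak. Hist1h1t is shown as a testis gene with little signal.
Hist1h1e, chr13:23622509-23622808, minus strand: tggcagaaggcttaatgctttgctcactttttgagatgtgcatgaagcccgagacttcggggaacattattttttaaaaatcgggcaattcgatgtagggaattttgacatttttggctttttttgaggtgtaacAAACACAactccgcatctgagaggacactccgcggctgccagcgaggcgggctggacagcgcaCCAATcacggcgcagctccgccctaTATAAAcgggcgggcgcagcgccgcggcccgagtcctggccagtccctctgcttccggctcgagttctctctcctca
Hist1h2bk, chr13:22035571-22035870, plus strand: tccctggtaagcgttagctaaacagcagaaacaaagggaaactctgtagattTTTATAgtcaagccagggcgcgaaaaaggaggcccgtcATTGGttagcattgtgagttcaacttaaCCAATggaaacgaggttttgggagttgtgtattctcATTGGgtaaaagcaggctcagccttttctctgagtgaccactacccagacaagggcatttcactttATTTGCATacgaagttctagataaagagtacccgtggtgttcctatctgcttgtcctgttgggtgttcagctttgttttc
Hist1h4h, chr13:23530794-23531093, plus strand: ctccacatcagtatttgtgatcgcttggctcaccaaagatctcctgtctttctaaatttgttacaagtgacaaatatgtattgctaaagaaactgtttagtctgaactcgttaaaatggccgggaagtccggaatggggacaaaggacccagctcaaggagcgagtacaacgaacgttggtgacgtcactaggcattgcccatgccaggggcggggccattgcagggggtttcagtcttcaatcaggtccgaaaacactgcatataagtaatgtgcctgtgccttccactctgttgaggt
Hist1h3h, chr13:21717378-21717677, plus strand: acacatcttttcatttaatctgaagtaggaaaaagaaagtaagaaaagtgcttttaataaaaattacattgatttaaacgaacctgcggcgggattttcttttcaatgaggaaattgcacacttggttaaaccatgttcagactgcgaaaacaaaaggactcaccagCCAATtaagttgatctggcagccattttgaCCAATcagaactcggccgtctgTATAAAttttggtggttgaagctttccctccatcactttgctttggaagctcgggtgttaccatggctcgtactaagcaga
Hist1h1t, chr13:23695561-23695860, plus strand: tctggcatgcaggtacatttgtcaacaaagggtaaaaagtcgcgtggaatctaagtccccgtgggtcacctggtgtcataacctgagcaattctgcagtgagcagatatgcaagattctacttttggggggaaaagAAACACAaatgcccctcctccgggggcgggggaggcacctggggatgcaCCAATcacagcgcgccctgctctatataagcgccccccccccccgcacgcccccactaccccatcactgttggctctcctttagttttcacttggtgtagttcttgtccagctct
Hist1h1e carried the H1 box, a CCAAT box and a TATA box, Hist1h2bk carried the octamer next to CCAAT boxes, and Hist1h4h held none of the searched letters in this window.

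Across the classes the elements were unequally placed. The octamer stood in 7 of 18 H2A and 6 of 16 H2B promoters and in 0 of the H1, H3 and H4 promoters, against 1.74% of all 32851 RefSeq promoters. Promoters of head-to-head partners overlap, so 1 site can count for both genes. Both partners were counted for Hist1h2ah and Hist1h2bk, Hist1h2ae and Hist1h2bg, and Hist1h2aa and Hist1h2ba. Such genes are not independent in these counts. CCAAT stood in 6 of 6 H1, 18 of 18 H2A, 16 of 16 H2B and 10 of 10 H3 promoters but in 3 of 12 H4 promoters (Hist1h4d, Hist1h4c and Hist1h4a), against 37.4% of all promoters. TATAAA stood in 35 of the 62, against 13.6% of all. The H1 box stood in 5 of 6 H1 promoters, Hist1h1a being the exception, and in 4 others (Hist1h2bm, Hist1h2ab, Hist1h2ba and Hist1h2aa), against 7.18% of all. Median CG dinucleotide counts were 11 per 300 bases in members and 7 in all promoters. Levels overlapped between promoters with and without an element: H2A and H2B genes with a counted start, reads and an octamer had a median level of 19.5 (0.511 to 34.1, 13 genes), and those with no octamer 15.99 (0.00533 to 27.3, 16 genes).

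Most histone windows were open in every stage. Over the 61 members with a counted start the median of the mean levels was 13.1, with a range of 0 to 34.1. Of the 60 of these with reads, 46 lay above 5.39, the 90th percentile of 2280 other intervals under 1000 bp, whose median was 0.606. Receptor intervals with windows of at least 500 bp had a median of 0.696. The 7 members whose starts were not counted had levels of 0 to 0.978, near the receptor intervals.

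**Figure D1:**
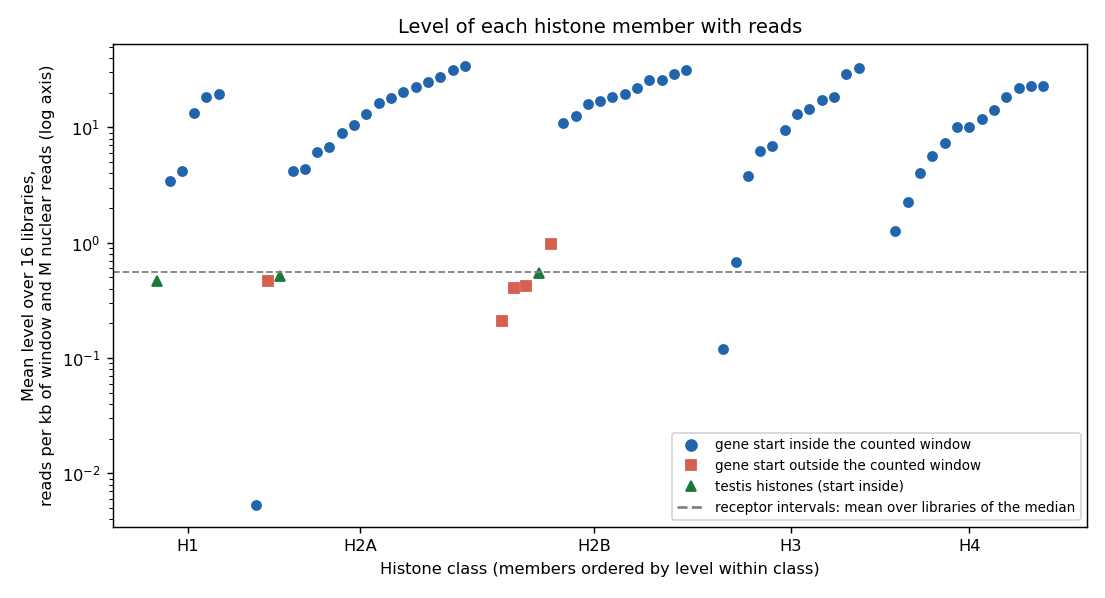
Mean level over 16 libraries of each member with reads, by histone class, on a log axis; the dashed line is the mean over libraries of the receptor median. Members with a counted start sit mostly between 1.26 and 34.1, while members whose start was not counted and the 3 testis histones lie near the dashed line.

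The testis histones were at the level of the background although their starts were counted. Hist1h1t, the testis linker histone, had a mean level of 0.464, Hist1h2aa, a testis H2A, 0.511 and Hist1h2ba, the testis H2B, 0.543. Together they gave 64, 85 and 98 reads over the 16 libraries. Both naive and peak libraries lay in this range, at 0.230 to 0.902 and 0 to 0.467 for Hist1h1t. Hist1h1t lies between open somatic members of the same stretch of chromosome 13, Hist1h2ac at a level of 34.1 and Hist1h4c at 18.2.

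Members at or near 0 with a counted start were otherwise Hist1h2ao, Hist1h2ap, Hist2h3c1 and Hist2h3c2, and all belong to duplicated genes for which the handling of reads with several alignments is not known. Hist1h2ao, Hist1h2bq and Hist1h2br had 0 reads in all 16 libraries, the last 2 without a counted start, and Hist1h2ap had 2 reads. Hist2h3c1 and Hist2h3c2, copies of an inverted repeat on chromosome 3 that also holds Hist2h2aa1 and Hist2h2aa2, had 20 and 116 reads. Values of these members are uncertain, since reads from near-identical copies may be dropped or split.

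The H2B windows had the highest class median in 16 of 16 libraries and the H1 windows the lowest in 11. The medians over members with a counted start were 18.9 for H2B (12 genes), 11.8 for H2A (18), 11.3 for H3 (12), 10.1 for H4 (13) and 8.82 for H1 (6). The H2A set held the duplicated copies Hist1h2ao (0), Hist1h2ap (0.00533), Hist2h2aa1 (4.35) and Hist2h2aa2 (4.21), and the H3 set Hist2h3c1 and Hist2h3c2. Hist1h2bq and Hist1h2br, H2B genes with 0 reads, were left out because their starts were not counted. The class medians therefore compare sets with unlike shares of duplicated copies. The ranges of member levels overlapped widely, at 0.464 to 19.4 for H1, 0.543 to 31.2 for H2B and 1.26 to 23.0 for H4. The H2A and H2B difference was not seen between genes that share a promoter region. In the 6 head-to-head pairs outside the testis genes with both starts counted, the 2 windows overlapped by 799 to 853 bp, and the counts of the partners differed by a median of 1.83 to 3.64% over libraries. Hist1h2ah and Hist1h2bk, the pair around the printed Hist1h2bk promoter, had 5039 and 5091 reads, so nearly the same reads were counted for both. Where the H2B partner's start was not counted, it was nearly closed in the table: Hist1h2ac had 5726 reads and its neighbour Hist1h2bc, 239 bp away, 300. In all, 37 of the 68 windows overlapped another window, and these members are not independent measurements.

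Linker histones bind the DNA between nucleosomes. Hist1h1e and Hist1h1c, linker histones of somatic cells, had mean levels of 19.4 and 18.4, and Hist1h1a had 13.4, while Hist1h1d had 4.22 and Hist1h1b 3.43. Among the core histones that form the H2A-H2B dimer, Hist1h2ac was the most open member at 34.1, followed in its class by Hist1h2ah at 31.2. Hist1h2bk at 31.2 led the H2B genes. Of the genes for H3 and H4, which form the tetramer at the centre of the nucleosome, Hist1h3a led with 32.8 and Hist1h4a with 23.0, and these neighbours are annotated within 1 kb and their windows overlapped by 408 bp.

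By cluster, the median level of members with a counted start was 14.4 in Hist1 (49 genes) and 6.75 in Hist2 (9 genes). The 9 Hist2 genes include the duplicated copies Hist2h3c1 (0.120), Hist2h3c2 (0.677), Hist2h2aa2 (4.21) and Hist2h2aa1 (4.35). Values of these copies are uncertain, and they lower the Hist2 median. Hist3h2a and Hist3h2ba were at 12.98 and 12.5, and Hist4h4 at 22.6. The Hist1 genes fell into blocks on chromosome 13 separated by more than 100000 bp. Block medians were again taken over members with a counted start. They were 16.9 for 27 of the 29 genes from 23531044 to 23764412 and 22.3 for all 5 from 22035122 to 22043658. For 15 of the 18 genes from 21715713 to 21837530, which hold the duplicated copies near 0, the median was 6.88. The testis pair Hist1h2aa and Hist1h2ba stood by itself at 23933725 to 23934913. Hist1h2al, at 51200084 to 51203066, is listed by RefSeq as a pseudogene and had a level of 0.470 with its start outside the window. In Hist2 the highest levels were those of Hist2h2bb (18.4), Hist2h3b (17.2) and Hist2h4 (14.2), followed by Hist2h2ab (8.86) and Hist2h2ac (6.75).

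The stages were compared with naive and with each other to ask where accessibility changed over the course of EAE. No member changed by edgeR's quasi-likelihood test with Benjamini-Hochberg adjustment over the 29902 tested intervals, among which 57 members passed the filter on low counts. In each of the 6 comparisons 0 of 57 members and 0% of all tested intervals passed an adjusted p of 0.05. The count was 0 as well with DESeq2, with limma-trend and with weighted limma-voom, in every comparison. An F test that asks for a change at any stage called 0 members, with 2 at an unadjusted p of 0.05 against 3.16% of all. The values that follow therefore describe libraries and were not shown to differ between stages. In bulk samples a change per cell and a change in the mix of cells cannot be told apart.

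Before symptoms, most histone windows had fitted values slightly under naive. Of 57 members 49 had a lower and 8 a higher fitted value than naive, against 58.4% lower and 41.6% higher of all tested intervals. The median log2 fold change was −0.23 against −0.06 over all. Of 242 other intervals under 1000 bp with a mean level above 5, a limit chosen after their values were seen, 67.4% were lower. Their median was −0.10. At an unadjusted p of 0.05, 0 members passed, against 1.16% of all tested intervals, and for 0 members did the groups not overlap (0.846% of all). Here and below, counts of members whose groups did not overlap were made on TMM-scaled CPM. The members of smallest p on the lower side were Hist3h2a (−0.55 ± 0.35, SE), Hist1h4f (−0.56 ± 0.39) and Hist3h2ba (−0.58 ± 0.42), and those on the higher side were Hist1h2ab (0.34 ± 0.49), Hist1h3b (0.32 ± 0.49) and Hist2h2aa1 (0.25 ± 0.39). The member median was 0.07 without naive replicate 5, so its sign rested on that library.

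At onset the members lay on both sides of naive. The median log2 fold change was 0.14 against −0.01 over all intervals, with 37 members higher, against 48.6% of all, and 20 lower. The same 242 other intervals under 1000 bp with a mean level above 5, a limit chosen after their values were seen, had a median of 0.36. Of these 226 were higher. The histone median was −0.06 without naive replicate 4, −0.10 without onset replicate 1 and −0.02 without onset replicate 2. At an unadjusted p of 0.05, 1 member passed, against 4.95% of all. It was Hist2h2aa1, an H2A gene of the duplicated Hist2 stretch, and the same gene was the 1 member whose onset and naive libraries did not overlap, against 2.53% of all.

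Hist2h2aa1 had levels of 1.63, 3.39, 1.58, 3.03 and 5.23 in naive replicates 1 to 5. The presymptomatic libraries were at 4.49, 3.95, 3.61 and 2.49, the onset libraries at 5.79, 7.61 and 8.69 and the peak libraries at 4.91, 3.55, 3.01 and 6.59. All 3 onset libraries exceeded all naive and presymptomatic libraries and overlapped with peak. The onset value was 1.22 ± 0.41 (SE) on the log2 scale, with an edgeR adjusted p of 0.972 and a range of 1.06 to 1.52 over fits that left out 1 library each. Its near-identical copy Hist2h2aa2 was at 0.54 ± 0.56 in the same comparison, and both are uncertain for the alignment reason given above. The other members of smallest p on the higher side were Hist1h1c (0.50 ± 0.34) and Hist2h2bb (0.37 ± 0.37), and those on the lower side were Hist1h4n (−0.80 ± 0.60), Hist3h2ba (−0.41 ± 0.46) and Hist1h4c (−0.27 ± 0.39).

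At peak, 50 of 57 members had a fitted value under naive, against 52.9% of all tested intervals, and the median was −0.46 against −0.03 over all. Of the other open intervals under 1000 bp, 82.6% were lower, with a median of −0.30. Each class had a negative median: −0.51 for H1 (5 of 5 lower), −0.35 for H2A (12 of 15), −0.43 for H2B (13 of 14), −0.51 for H3 (9 of 10) and −0.50 for H4 (11 of 13). At an unadjusted p of 0.05, 2 members passed, against 3.61% of all, and for 0 of them did the groups not overlap (0.977% of all). The median ran from −0.68 without peak replicate 4 to −0.18 without naive replicate 5.

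Hist1h1e had the smallest p of all members at peak. Its levels were 19.3, 25.4, 10.1, 9.13 and 36.0 in naive replicates 1 to 5 and 26.1, 19.5, 21.6 and 16.6 in the presymptomatic libraries. They were 33.2, 23.9 and 23.8 at onset and 7.27, 13.5, 4.28 and 20.3 at peak. The peak libraries lay under all 3 onset libraries but inside or under the naive range, which naive replicates 3 and 4 stretched down. The log2 fold change was −0.94 ± 0.39 against naive and −1.30 ± 0.42 against onset, with edgeR adjusted p-values of 1.00 and 0.737.

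Hist1h3h, an H3 gene, had levels of 9.91, 10.8, 5.79, 2.36 and 15.6 in naive and 5.34, 4.05, 11.3 and 3.86 in presymptomatic libraries. Onset libraries were at 11.4, 9.38 and 3.68 and peak libraries at 1.17, 5.00, 2.49 and 7.97. Peak and naive overlapped through naive replicates 3 and 4 and peak replicates 2, 3 and 4, and the log2 fold change was −1.24 ± 0.53. The third member by p on the lower side was Hist1h2bf, at −0.88 ± 0.44. On the higher side stood Hist2h2aa1 (0.48 ± 0.41), Hist2h2aa2 (0.33 ± 0.55) and Hist2h2bb (0.21 ± 0.36), all from the Hist2 cluster.

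**Figure D2:**
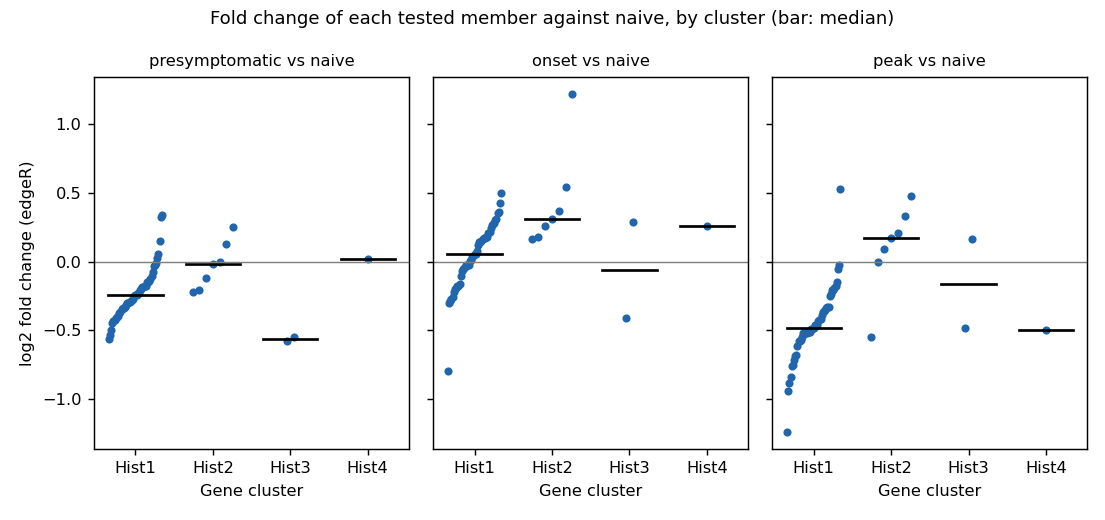
edgeR log2 fold change against naive of each tested member, 1 panel per stage, by gene cluster, with the median as a bar. At peak 46 of 47 Hist1 members lie under 0 and 5 of 7 Hist2 members above it, and no single member passed the test.

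The most open members followed the same pattern of libraries with smaller contrasts. Hist1h2ac had levels of 34.8, 44.4, 26.0, 25.5 and 62.0 in naive, 21.4, 21.9, 45.6 and 26.7 in presymptomatic, 49.1, 44.3 and 23.7 in onset and 21.1, 34.5, 15.5 and 48.6 in peak libraries. The 4 groups overlapped throughout, and the peak value was −0.46 ± 0.33. Hist1h2bk had levels of 25.1, 38.1, 22.2, 12.05 and 63.7 in naive, 26.4, 24.7, 43.6 and 38.0 in presymptomatic, 40.8, 37.4 and 18.3 in onset and 12.99, 28.8, 16.03 and 50.8 in peak libraries. The highest library was again naive replicate 5, and the peak value was −0.36 ± 0.39.

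Hist1h2bg, the H2B gene of smallest F-test p, had levels of 19.1, 26.0, 11.97, 9.70 and 37.4 in naive, 14.1, 16.9, 24.9 and 16.9 in presymptomatic, 35.8, 28.3 and 16.1 in onset and 10.6, 19.2, 6.22 and 19.0 in peak libraries. Onset and peak overlapped through onset replicate 3, and the value of peak against onset was −1.0004 ± 0.41 with an edgeR adjusted p of 0.737. Hist1h3a had levels of 33.9, 45.2, 19.6, 26.4 and 58.9 in naive, 26.1, 21.9, 44.4 and 29.4 in presymptomatic, 42.8, 39.5 and 26.7 in onset and 16.7, 37.5, 13.7 and 42.8 in peak libraries. Hist1h4a, its neighbour, had 19.8, 32.4, 13.7, 13.9 and 46.1 in naive, 17.3, 13.7, 25.8 and 21.2 in presymptomatic, 40.1, 25.1 and 24.7 in onset and 10.1, 25.0, 13.5 and 25.5 in peak libraries. For both, peak replicates 1 and 3 were low and peak replicates 2 and 4 lay within the naive range, with peak values of −0.49 ± 0.33 and −0.52 ± 0.35.

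Between disease stages, most members had their highest fitted values at onset. Against presymptomatic libraries, 51 of 57 were higher at onset with a median of 0.32, where 53.3% of all intervals were higher, and 2 members passed an unadjusted p of 0.05 (4.13% of all). The 2 members without overlap were Hist2h2aa1 and Hist3h2a, against 10.1% of all intervals. From onset to peak, 55 of 57 were lower with a median of −0.43, where 47.9% of all intervals were lower and 52.1% higher. At an unadjusted p of 0.05, 3 passed, against 6.65% of all. Hist1h2bp, Hist1h1e and Hist1h1c did not overlap between these stages in TMM-scaled CPM, against 6.75% of all. In levels Hist1h2bp did overlap, at 0.209 to 0.326 at onset and 0.0480 to 0.210 at peak. The start of Hist1h2bp was not counted, and it had 2 to 9 reads in the peak libraries. At peak 43 of 57 were under presymptomatic, with a median of −0.21, where 46.7% of all intervals were lower, and the 1 member at an unadjusted p of 0.05 was Hist1h1e (3.41% of all). For 0 members did peak and presymptomatic libraries not overlap, against 2.72% of all. In the other open short intervals the medians were 0.42, −0.61 and −0.19 in these comparisons, each of the same sign as in the histone windows. Of these 242 intervals, 227 were higher at onset than in presymptomatic libraries. At peak 231 were lower than at onset, and 176 were lower than in presymptomatic libraries. Summed rod markers were at 163 to 364 TMM-scaled CPM at onset, 77.6 to 149 in presymptomatic and 74.5 to 171 in peak libraries, so onset and peak overlapped, and the part of cell composition in these shifts was not tested.

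**Figure D3:**
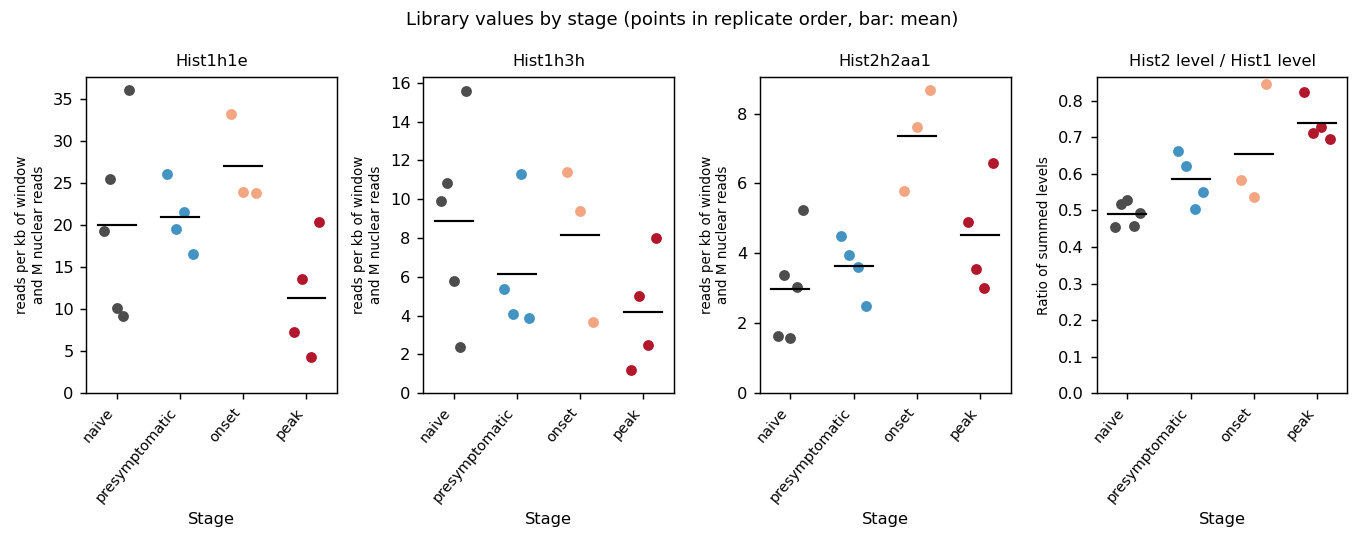
Levels of Hist1h1e, Hist1h3h and Hist2h2aa1 and the ratio of Hist2 to Hist1 levels in each library by stage, with the mean as a bar. Hist1h1e is lower in all peak than in all onset libraries, and the ratio is higher in all peak (0.695 to 0.824) than in all naive libraries (0.455 to 0.527).

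The clusters differed in how they stood at peak. The Hist1 median was −0.48 with 46 of 47 members lower than naive, and the Hist2 median was 0.17 with 5 of 7 higher. Hist2h2bb, an H2B gene, had levels of 13.8, 22.0, 10.3, 5.54 and 27.6 in naive and 15.3, 22.9, 10.0 and 30.3 in peak libraries, and Hist2h4 and Hist2h3b were at 0.09 ± 0.34 and 0.17 ± 0.36. Hist2h2ab was at −0.55 ± 0.42 and Hist2h2ac, whose window overlaps it by 1035 bp, at −0.00 ± 0.40. Hist3h2a was at 0.16 ± 0.35, Hist3h2ba at −0.49 ± 0.43 and Hist4h4 at −0.50 ± 0.35.

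Taken within each library, where depth and scaling cancel, the summed Hist2 level divided by the summed Hist1 level was lower in naive than at onset and at peak. The ratio was 0.455, 0.516, 0.527, 0.457 and 0.494 in naive replicates 1 to 5 (mean 0.490 ± 0.033, SD, n = 5) and 0.824, 0.713, 0.729 and 0.695 in peak replicates 1 to 4 (0.740 ± 0.058, SD, n = 4). All 4 peak libraries stood above all naive libraries. The presymptomatic libraries were at 0.664, 0.623, 0.504 and 0.551 and the onset libraries at 0.583, 0.538 and 0.846. All 3 onset libraries too stood above all naive libraries, and the presymptomatic libraries overlapped with naive. The peak ratios rested on 225 to 518 reads in Hist2 and 1705 to 4009 in Hist1 windows.

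The separation of peak from naive was present in 4 ways of forming the ratio, the first of them given above. All 4 were formed after the data were seen. As a ratio of medians it was 0.309 to 0.528 in naive and 0.573 to 0.814 at peak, with overlapping windows left out 0.613 to 1.06 and 1.11 to 1.36, and without the duplicated Hist2 copies 0.621 to 0.812 and 1.05 to 1.28. In the last 3 the onset libraries overlapped with naive, at 0.443 to 0.733, 0.812 to 1.32 and 0.765 to 1.18. The log2 ratio of peak to naive was 0.60 and ran from 0.54 to 0.62 over fits that left out 1 library each. As background, 0.495% of all tested intervals had more reads per Hist1 read in every peak than in every naive library, and 0.0569% had fewer. Among the 242 other open short intervals it was 1.24%, and among single Hist2 members it was 1 of 7, Hist2h2bb. These shares are of single intervals, whereas the ratio sums the reads of several windows. They are therefore not rates for a like score. Since the ratio is a score over members chosen with results known, no p is given for it.

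Libraries of the same stage differed more than the stages did, and histone windows moved together. Naive replicate 5 was the highest naive library for 49 of 57 tested members and naive replicate 4 the lowest for 48. Onset replicate 1 was highest for 44 and onset replicate 3 lowest for 49, and peak replicate 4 was highest for 45 and peak replicate 3 lowest for 38. In the presymptomatic group replicate 3 was highest for 35 members and replicate 2 lowest for 34. The median level over members was 22.6 in naive replicate 5 and 5.77 in naive replicate 4, the highest and the lowest of all 16 libraries. The group means of this median were 13.8 ± 6.39 (SD, n = 5) in naive, 11.6 ± 3.10 (n = 4) presymptomatic, 14.9 ± 3.58 (n = 3) at onset and 10.9 ± 4.30 (n = 4) at peak. The highest library exceeded the lowest by a median of 5.32-fold per member (2.57- to 23.4-fold, 56 members with reads in all libraries). edgeR's biological coefficient of variation had a median of 0.390 in members and 0.377 over all tested intervals.

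**Figure D4:**
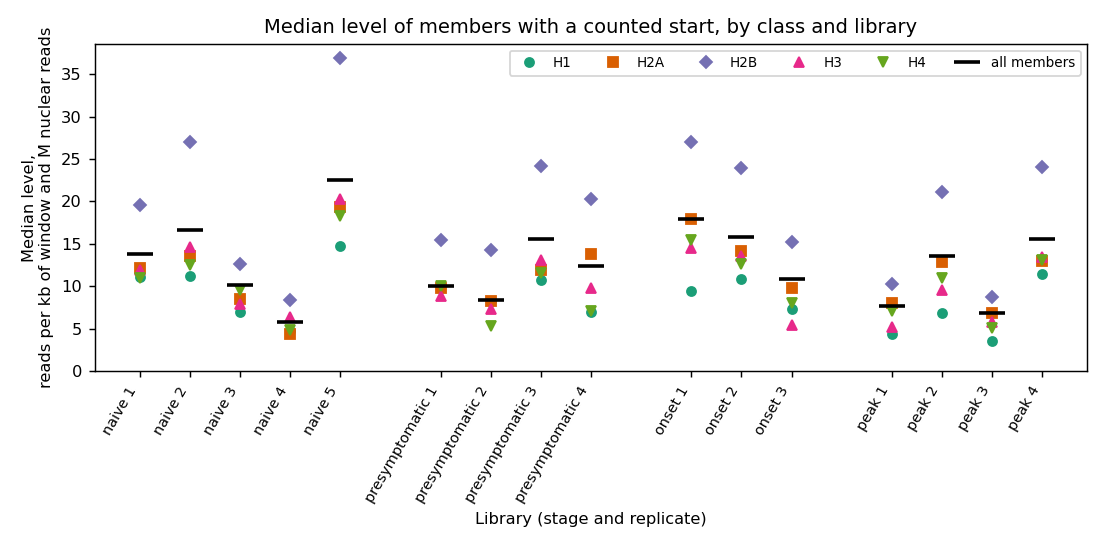
Median level of members with a counted start in each of the 16 libraries, by histone class, with the median over all members as a bar. The classes rise and fall together from library to library, and H2B is the highest class in each.

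The background measure moved with these levels in part of the libraries. Naive replicates 3 and 4 and peak replicate 3, with receptor shares of 0.562, 0.495 and 0.487% of nuclear reads, had median histone levels of 10.1, 5.77 and 6.81. Naive replicates 2 and 5, with 0.192 and 0.215%, had 16.6 and 22.6. Onset replicate 3 was an exception, with a low share of 0.202% and a histone level of 10.9, and it also had the fewest mitochondrial reads, at 8.36%. Peak replicates 1 and 2 had similar shares of 0.282 and 0.274% but histone levels of 7.70 and 13.5. Presymptomatic replicate 3, with a share of 0.351%, had 15.6.

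A model with a mean per stage and a slope on the log2 receptor share was fitted to all intervals with edgeR's quasi-likelihood test. All 57 tested members had a negative slope, against 55.5% of all intervals and 96.3% of the other open short intervals. The member median was −0.76 per doubling of the share against −0.08 over all. By this test 26 of 57 fell with the share at an adjusted p of 0.05, against 6.79% of all tested intervals that fell, and 17.9% called in either direction. Among the 26 tested members whose windows overlap no other, 6 fell (23.1%), near the 22.3% of other open short intervals, and the count over all members includes reads shared by overlapping windows. The members that fell included Hist1h4h (−1.25 ± 0.27, adjusted p = 0.000815), Hist1h1e (−1.13 ± 0.24, adjusted p = 0.000888), Hist2h2bb (−0.94 ± 0.24, adjusted p = 0.00555), Hist1h2bk (−0.80 ± 0.28, adjusted p = 0.0427) and Hist3h2a (−0.83 ± 0.27, adjusted p = 0.0286). Hist4h4 (−0.49 ± 0.26) and Hist1h3h (−0.88 ± 0.39) did not pass. By class, 2 of 5 H1, 10 of 15 H2A, 7 of 14 H2B, 3 of 10 H3 and 4 of 13 H4 genes passed.

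The other open short intervals had a median slope of −0.49, and that of the 26 members without overlap was −0.68. Without the 3 libraries of highest share, 0 members and 0 of all intervals passed, and the member median was −0.33. The count of members was 7 without naive replicate 4 or without naive replicate 5, 8 without peak replicate 3, 12 without naive replicate 2, 14 without presymptomatic replicate 2 and 15 without peak replicate 4. Histone reads are themselves part of the nuclear reads that form the denominator of the share, so slope and share are not fully separate measures.

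**Figure D5:**
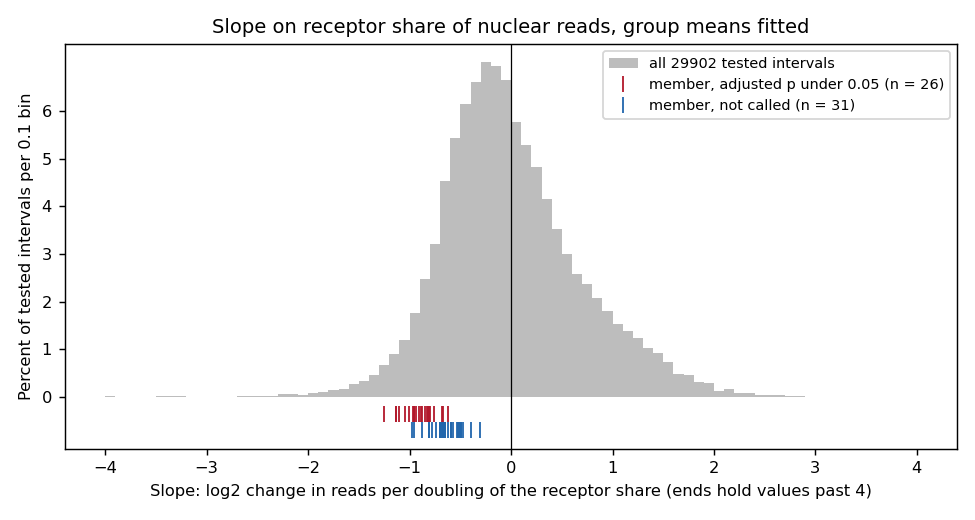
Slope on the log2 receptor share in all 29902 tested intervals (grey, percent per 0.1 bin) and in the 57 tested histone members (ticks under 0 on the y axis, which carry no height). All members lie left of 0, and 26 passed the test with 16 libraries while 0 passed without the 3 libraries of highest share.

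Genes that act with the replication-dependent histones were counted mostly over gene bodies, with their starts outside the window, and none was called in any of the 6 stage comparisons. Of the listed factors of histone gene transcription, 3′ end processing and chaperoning, 9 of 21 tested stood above naive at peak, and the median was −0.05. The list holds Npat, the histone locus body coactivator, at 0.33 ± 0.42 (log2, SE), and Slbp, the stem-loop binding protein, at 0.57 ± 0.62. Of 10 tested replication-independent histone genes, 4 were above naive at peak, and the median was −0.26. H3f3b, which encodes the replacement histone H3.3, was at 0.08 ± 0.53, H2afz, which encodes H2A.Z, at −0.43 ± 0.36 and H2afx, the H2A variant marked at DNA breaks, at −1.94 ± 0.85. Among 22 DNA replication genes the median was 0.04, and 11 stood above naive. The member median in the same comparison was −0.46, and the difference from these lists was not tested. Along the receptor share, 1 gene of the first list (Cstf2) and 1 of the third (Pola1) rose, by the same edgeR test, and 0 fell.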

How the data were processed

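ATAC-seq counts for 16 libraries were analysed. Per the submitters' processing notes, reads were handled with cutadapt, HISAT2 and HTSeq; their versions, the genome build, duplicate removal and the treatment of multi-mapping are not given in the sources used here. Counts, as deposited by the authors, are whole reads per gene interval. The RPKM values deposited by the authors were used to find each interval's length, the absolute difference between span and 2000 bp (largest relative deviation 9.15e-14), and each library's total. The exon length deposited by the authors was not used. Groups came from the labels, which do not say that libraries are separate animals, and p-values therefore reflect the variation among libraries, which may be technical. Libraries of no pair were alike within sampling noise (chi-square per degree of freedom 3.87 to 302 over 120 pairs).

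edgeR 4.0.16 (limma 3.58.1, R 4.3.3) kept 29902 intervals with filterByExpr (minimum count 10, minimum total 15), with TMM scaling, a quasi-likelihood fit of a mean per group over all libraries and Benjamini-Hochberg adjustment. Alternatives included DESeq2 1.42.0. SE values derive from the F statistic. The scripts were tested on simulated data. Levels use all reads of nuclear intervals.

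Members and lists were chosen with earlier results of these data known. Named were, per class, the highest member and the one of smallest F-test p, per contrast with naive the 3 members of smallest p in each direction, testis histones and the smaller clusters. Hist1h4h, members without overlap and those of other contrasts were named after their values were seen. Motif, ratio and open-interval summaries are descriptions. Deposited coordinates carry no stated build. RefSeq held 54 members at identical coordinates in GRCm38.p6, and all 62 promoter starts lay within 50 bp.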

Additional observations from a re-analysis of the deposited data

Results flagged for a closer look

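Of 75 group summaries in 4 or 5 libraries, 4 had a library far from the others by Dixon's ratio (its gap to the nearest library over the group's range). Chance flags about 1 in 20 such groups, so 4 of 75 is near that rate.

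The Hist3 to Hist1 ratio of presymptomatic replicate 4 was 0.448, with the group's highest at 0.801 (Dixon ratio 0.880). The median histone level over that of other open short intervals was 0.698 in naive replicate 4, with the highest naive library at 1.42 (0.717), and this library also had a high receptor share of 0.495%. The testis histone Hist1h1t had a level of 0.467 in peak replicate 1 and 0 in the other peak libraries (1.00), and Hist1h2aa had 1.28 in naive replicate 4 (0.715). Both testis values rest on few reads, at 64 and 85 over all libraries.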

How the results depend on the processing

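In all 6 stage comparisons the 0 members called remained 0 under every alternative that was run: other scalings, filters and tools, the receptor share as a covariate, a replicate block, 2-group fits and fits that left out libraries. Of all intervals, DESeq2 called 1 in peak versus naive, 1 in onset versus presymptomatic and 5 in peak versus onset, and 1 was called in peak versus presymptomatic without the 3 libraries of highest receptor share. Leaving out 1 library at a time called 0 in each comparison. With the replicate number as a block 1 interval was called in onset versus presymptomatic and the member medians were 0.12, 0.37 and −0.18 at the presymptomatic stage, onset and peak. Whether the numbers pair libraries is not known. Of 21 same-numbered pairs, 7 deviated together with a correlation over 0.1, in a range of −0.44 to 0.48. Pairs with different numbers were not set beside them, so these values cannot decide it.

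For the slope on receptor share, 2301 intervals (34 members) passed with the share of all reads, 0 (0 members) without the 3 libraries of highest share, and 3070 to 5611 intervals and 7 to 37 members when 1 library was left out. Leaving out 1 library moved member medians over −0.41 to 0.07 (presymptomatic versus naive), −0.10 to 0.36 (onset versus naive), −0.68 to −0.18 (peak versus naive), 0.15 to 0.54 (onset versus presymptomatic), −0.39 to 0.04 (peak versus presymptomatic), −0.72 to −0.24 (peak versus onset) and −1.02 to −0.60 for the slope. The log2 Hist2 to Hist1 ratio ran over 0.19 to 0.32, 0.19 to 0.54 and 0.54 to 0.62 at the 3 stages, and the 0.19 at onset came without onset replicate 3. Scaling by total counts moved the median of all intervals to 0.26, 0.60 and 0.04 at the 3 stages and the member medians to −0.02, 0.53 and −0.51. With the receptor share as a covariate the member medians were −0.01, −0.11 and −0.43.

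Of 18 named fold changes, 6 changed sign somewhere and 0 were called in any setting. At the presymptomatic stage Hist1h2ab was −0.0605 without label numbers 16 and 17 and −0.0440 without the 3 libraries, where Hist1h3b was −0.16, and leaving out 1 library gave −0.0721 to 0.77 for Hist1h2ab. At onset Hist1h4c was 0.12 with total counts and 0.0016 without label numbers 16 and 17 (−0.48 to 0.00075 leaving out 1 library), and Hist2h2bb was −0.0183 without the 3 libraries. At peak Hist2h2aa2 was −0.0123 with limma-trend (−0.33 to 0.71 leaving out 1 library), and Hist2h2bb ran over −0.0315 to 0.51. The cause was not tested.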
